A study of Mus musculus with 20 samples.

Results

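Aminoacyl-tRNA synthetases are the enzymes that join each amino acid to its tRNA. The genes described here are the 40 of 34937 listed genes whose symbols follow the naming of these enzymes or of 2 scaffold proteins, Aimp1 and Aimp2. They comprise 19 cytosolic enzymes or enzyme subunits, 2 genes (Gars and Kars) whose products serve the cytosol and the mitochondrion, 17 mitochondrial enzymes and the 2 scaffolds. Mitochondrial enzymes carry a 2 at the end of the symbol, and the exceptions are Aimp2, a scaffold, and Tarsl2, counted here with the cytosolic enzymes. Gars and Kars were counted with the cytosolic enzymes throughout.

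RNA was measured in single 8-cell mouse embryos taken at E2.5, 9 labelled Ehmt2Cntr and 10 labelled Ehmt2Mat. Ehmt2 encodes G9a, the enzyme that places dimethylation on lysine 9 of histone H3. All mothers carried Zp3-Cre, which recombines the conditional Ehmt2 allele in the growing oocyte, and were Ehmt2F/+ for Ehmt2Cntr and Ehmt2F/- for Ehmt2Mat embryos, so that the controls also come from Cre-bearing mothers. The embryos themselves were +/+ (n = 6) or +/- (n = 3) among Ehmt2Cntr, and +/- (n = 5, Ehmt2M/+) or -/- (n = 5, Ehmt2M/Z) among Ehmt2Mat. They were of mixed background, from natural matings, morphologically normal and freed of the zona pellucida. The mothers and litters of the embryos are not named, so p-values treat embryos as independent. A further Ehmt2Cntr embryo is labelled but was not analysed here.

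Total counts were between 8231646 and 30602434 per embryo, and values are given as counts scaled to the library total (CPM) after TMM scaling. Between 12068 and 16142 genes were detected in controls (median 12848) and between 12754 and 16412 in Ehmt2Mat embryos (median 14488). Ehmt2Cntr 10 held the 16142, and no other control was above 13230. Ehmt2 itself, with lowest, median and highest values of 66.6, 133 and 253 CPM in controls and 58.7, 94.9 and 159 CPM in Ehmt2Mat, had a log2 fold change of -0.47 (SE 0.24, adjusted p = 0.233), so its transcript did not separate the groups. These counts cover all exons of Ehmt2 and include transcripts of the zygotic copies. Of 12 embryo and oocyte markers 9 were tested, 2 were higher and 1 lower in Ehmt2Mat, where 4.37% and 4.98% of all tested genes were. Tead4, a trophectoderm regulator present in every embryo, was higher (log2 fold change 0.90, SE 0.19, adjusted p = 0.00460), as was Oosp1, an oocyte-secreted protein gene (2.70, SE 0.54, adjusted p = 0.00277). Gata6, a primitive endoderm regulator, was lower (-1.85, SE 0.39, adjusted p = 0.00410). Pou5f1 and Cdh1 were present in every embryo, and Cdx2, Zscan4c and Zscan4d were too low to be tested. The rRNA-like genes AY036118 and Gm42418 were lower in Ehmt2Mat, with log2 fold changes of -2.40 (SE 0.45, adjusted p = 0.00180) and -1.96 (SE 0.41, adjusted p = 0.00423). Of 13 markers of cumulus, oviduct, blood and stromal cells, 12 were too low to be tested by edgeR, and Amh, Foxl2, Fshr, Has2 and Ptx3 were at 0 in every embryo. The 12 summed to at most 35.8 CPM in controls and 93.9 CPM in Ehmt2Mat (medians 0.301 and 7.79). Ovgp1, an oviductal glycoprotein gene, had lowest, median and highest values of 0.045, 2.45 and 371 CPM in controls and 9.60, 103 and 2799 CPM in Ehmt2Mat (adjusted p = 0.0926 by edgeR and 0.0328 by DESeq2). DESeq2 also called Col1a2, a stromal collagen gene (adjusted p = 0.00171), and the part of these markers in the values below was not tested. Each value is a share of the RNA of a whole embryo, so fewer cells and less RNA per cell cannot be told apart.

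Each synthetase activates its amino acid with ATP and transfers it to the matching tRNA, and the charged tRNA is then delivered to the ribosome. Mammalian cells hold separate sets for cytosolic and for mitochondrial translation, the latter encoded in the nucleus and imported. In the cytosol, several synthetases are held in a multi-synthetase complex around the scaffolds Aimp1, Aimp2 and Eef1e1. Cleavage-stage embryos pass from maternal to zygotic transcripts, and synthetase genes are among those that every dividing cell uses. In many cells a shortage of amino acids raises the translation of the transcription factor Atf4, which binds a composite element in the promoters of several cytosolic synthetases.

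The first sequence shows the short stretch from which Kars, the lysyl-tRNA synthetase, and Terf2ip, a telomere protein gene, are transcribed in opposite directions. It is printed because Kars was the member that passed the test. The 30 bases at chr8:112011335-112011364 (GRCm38, minus strand) run 5′ to 3′ along Kars, and capitals mark the ETS core CCGGAAG, which spans the RefSeq start of Kars. The first 6 bases lie in exon 1 of Terf2ip and none lies in an annotated Kars exon of the counted annotation. That annotation starts Kars downstream of the stretch, whereas the RefSeq start lies within it.
Kars and Terf2ip: tttcCCGGAAGaggcaggacttagagccac

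The next sequence is the 147-base interval between Mrps12, a mitochondrial ribosomal protein gene, and Sars2, the mitochondrial seryl-tRNA synthetase, at chr7:28741821-28741967 (GRCm38, plus strand, 5′ to 3′ towards Sars2). Capitals mark 3 CCAAT boxes, all read on the opposite strand as ATTGG.
Mrps12 and Sars2: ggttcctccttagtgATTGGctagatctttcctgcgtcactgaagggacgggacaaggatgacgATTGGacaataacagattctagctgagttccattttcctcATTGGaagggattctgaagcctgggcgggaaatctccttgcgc

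The last sequences are 30-base stretches of the Gars and Tars promoters, shown because they hold the element through which Atf4 acts on synthetase genes. Capitals mark the composite element TGATGNAA, in each case on the opposite strand. They lie at chr6:55037960-55037989 (plus strand) and chr15:11399655-11399684 (minus strand). Of the Tars stretch 4 bases are exonic.
Gars: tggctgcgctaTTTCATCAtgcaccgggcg
Tars: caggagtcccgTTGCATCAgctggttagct

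RefSeq promoters (GRCm38.p6) were matched for 29 members, and Rars, Lars, Mars and several others were not in the table. In the 250 bases before the start, searched on both strands, TGATGNAA was present in 3 of 13 cytosolic promoters (Aars, Gars and Tars) and 0 of 14 mitochondrial promoters, against 1.95% of 8815 promoters of tested genes. The E-box CACGTG was present in 3 cytosolic promoters (Aars, Farsb and Iars) and 0 mitochondrial promoters, against 8.67% of all. The NRF1 core GCGCATGC showed the opposite split, with 0 cytosolic and 3 mitochondrial promoters (Rars2, Vars2 and Wars2) against 5.05% of all. The ETS core was found in 3 promoters of either class (15.5% of all), and CCAAT in 6 cytosolic and 5 mitochondrial promoters (36.8% of all). These letter matches overlap in some windows and are not sites of measured binding.

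To compare levels between genes, CPM were divided by the length of the exons in kilobases. The cytosolic enzymes had a median level of 24.1 CPM per kb in controls (20 genes without Tarsl2, 5.62 to 148), and the mitochondrial enzymes 4.26 CPM per kb (17 genes, 1.01 to 33.2). Kars was highest at 148 CPM per kb, followed by Rars, the arginyl-tRNA synthetase, at 116, and the scaffold Aimp2 at 114. Nars, the asparaginyl enzyme, stood at 90.2 CPM per kb. At the other end were Vars2, Iars2 and Nars2, the mitochondrial valyl, isoleucyl and asparaginyl enzymes, at 1.01, 1.07 and 1.11 CPM per kb. Because the cDNA is biased to the 3′ end, division by the whole exon length lowers long transcripts, and the order holds only for this scale.

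**Figure D1:**
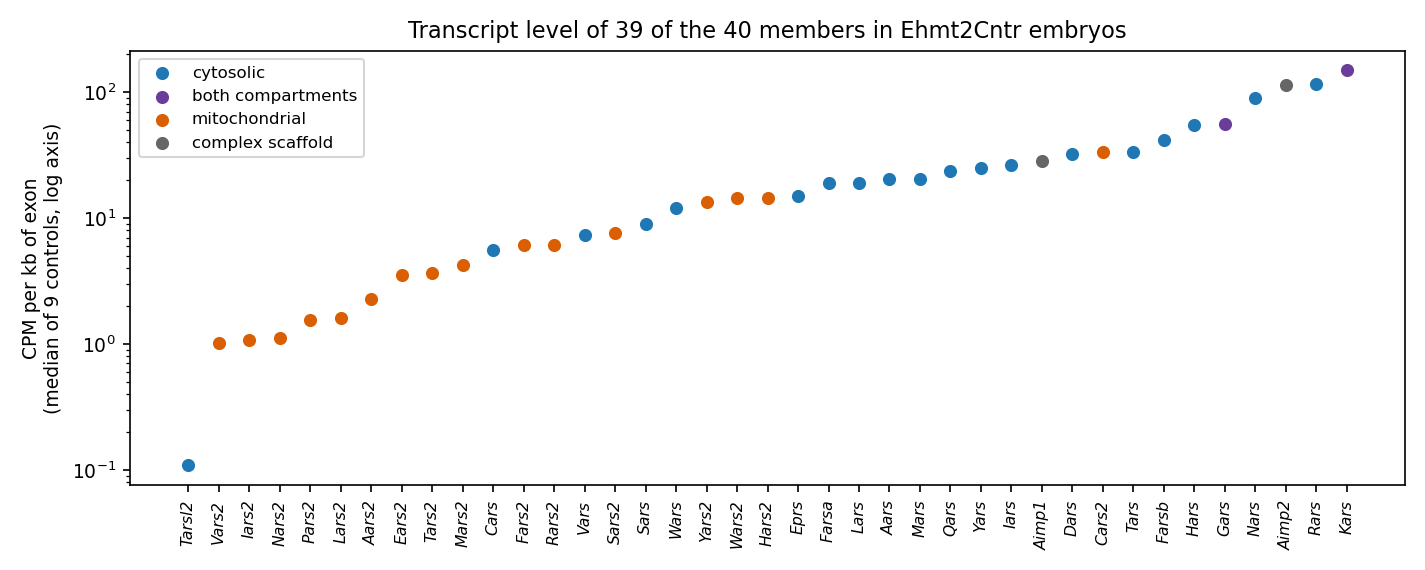
Transcript level of 39 of the 40 members in Ehmt2Cntr embryos, as the median of 9 embryos in CPM per kb of exon on a log axis. Mitochondrial enzymes (orange) hold most of the low positions with a median of 4.26 CPM per kb, and Tarsl2 lies lowest of all.

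Cars2, the mitochondrial cysteinyl enzyme, was the exception with 33.2 CPM per kb, and it exceeded its cytosolic partner Cars in 19 of 19 embryos. Cars2 shares 378 exon bases (20.5%) with Naxd on the opposite strand, and the counting did not use strand. For serine and tryptophan the 2 compartments were close, with cytosolic Sars above Sars2 in 7 of 19 embryos and Wars above Wars2 in 6 of 19 embryos. In the other 14 amino acid pairs the cytosolic enzyme was the higher per kb in 16 to 19 embryos. Asparagine was the widest, with Nars at a median of 92.1 times the level of Nars2. The lower mitochondrial transcripts also varied more between embryos. The median coefficient of variation was 49.4% in controls and 56.1% in Ehmt2Mat for the mitochondrial enzymes, against 33.2% and 30.4% for the cytosolic ones.

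To see whether maternal loss of G9a was accompanied by other synthetase levels, the 10 Ehmt2Mat embryos were compared with the 9 controls across 11754 genes. Among all genes 9.35% passed at an adjusted p of 0.05, 4.37% higher and 4.98% lower in Ehmt2Mat. Of the members, 39 could be tested and 1 passed, Kars, which was higher. This is 2.56% of the members and thus no more than the background. At an unadjusted p of 0.05, 6 members were higher and 1 lower (17.9%), against 23.3% of all genes (10.9% higher and 12.3% lower). Tarsl2, a threonyl enzyme gene, did not pass the filter on low counts, being at 0 in 3 controls and 6 Ehmt2Mat embryos and reaching 8.77 CPM at most.

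Kars stood at 241, 333 and 421 CPM (lowest, median and highest) in controls and at 386, 611 and 1109 CPM in Ehmt2Mat embryos. All 10 Ehmt2Mat embryos lay above the control median, 8 lay above every control, and the overlap came from Ehmt2Cntr 10 alone. Without that control, left out after the values were seen, the highest control value was 374 CPM and the groups did not overlap. For Rars, which did not pass, the overlap came from Ehmt2Mat 8 alone. Leaving out the embryo that makes an overlap removes it by construction, so neither removal adds support. The share of all genes with such counts of embryos, or with groups apart once a single embryo is left out, was not determined. This holds here and for the members below. The log2 fold change was 1.00 (SE 0.19, adjusted p = 0.00215 by edgeR's quasi-likelihood test), a 2.00-fold difference with a 95% confidence interval of 1.52 to 2.64. In an exact two-sided permutation test over 92378 splits of the embryos, the mean log2(CPM + 1) was 0.94 higher in Ehmt2Mat (p = 9.7e-05). Without Ehmt2Cntr 10 it was 0.99 higher (p = 0.00014 by the same test). Kars was tested in this way because it had passed in the same embryos, and Ehmt2Cntr 10 was left out for its value. These p-values allow for neither choice and add no independent support. The call held with any single embryo removed, with log2 fold changes from 0.88 to 1.07. Kars lies at chr8:111993440-112011323 on the minus strand, and its exons share no base with another gene. Of the 50-base windows of its transcripts 0.236% occur in another gene.

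**Figure D2:**
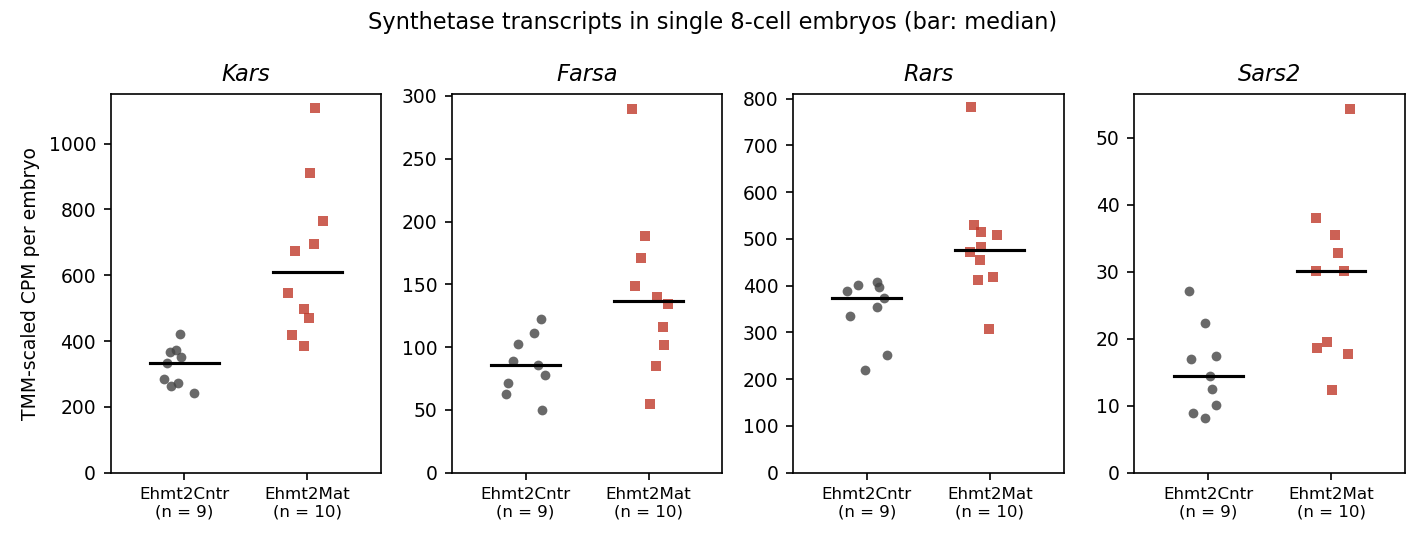
TMM-scaled CPM of Kars, Farsa, Rars and Sars2 in each embryo, with a bar at the median of 9 Ehmt2Cntr (circles) and 10 Ehmt2Mat (squares) embryos. Kars overlaps between groups only through the control at 421 CPM, and Rars only through the Ehmt2Mat embryo at 307 CPM. Farsa and Sars2 overlap through several embryos.

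In the counted annotation, which starts Kars downstream of its RefSeq start, Terf2ip starts 36 bases from Kars. Terf2ip had 15.6, 23.5 and 55.0 CPM in controls and 7.39, 18.4 and 42.3 CPM in Ehmt2Mat. Its ranges overlapped broadly (log2 fold change -0.37, SE 0.33, adjusted p = 0.556). The fold change of the gene read away from the same stretch thus had the opposite sign to that of Kars, with an error that includes 0.

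Split by the genotype of the embryo itself, Kars had a median of 303 CPM in the 6 +/+ controls (241 to 374) and 351 CPM in the 3 +/- controls (285 to 421). Ehmt2Mat embryos with the genotype +/- had a median of 498 CPM (386 to 1109) and those with -/- 695 CPM (469 to 911). Each genotype of Ehmt2Mat therefore had a higher median than each of the controls, with overlap between the +/- groups. With the genotype matched at +/-, 5 Ehmt2Mat against 3 control embryos, the log2 fold change of Kars was 0.72 (SE 0.37, adjusted p = 0.798). In that smaller comparison 0 of 39 members passed with edgeR, where 0.00746% of 13401 genes did (1 gene). At an unadjusted p of 0.05, 1 member was counted (Sars2), against 6.76% of all genes, and DESeq2 called 0 members and 1.48% of 13871 genes.

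The zygotic copy of Ehmt2 was examined within each maternal group. Ehmt2M/Z and Ehmt2M/+ embryos differed in 0 of 12195 genes by edgeR (270 at an unadjusted p under 0.05, 2.21%), and in 0.098% of 15313 by DESeq2 (15 genes), none a member. Among the 39 members 0 were under an unadjusted p of 0.05, and Kars had a log2 fold change of 0.26 (SE 0.29). Between +/- and +/+ controls 0 of 12646 genes passed by edgeR (572 at an unadjusted p under 0.05, 4.52%) and 0.76% of 13952 by DESeq2 (106 genes), again with 0 of 40 members. Iars was the 1 member under an unadjusted p of 0.05, at a log2 fold change of -0.67 (SE 0.27, adjusted p = 1.00). The latter comparison had 3 +/- controls.

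After Kars, the smallest adjusted p-values belonged to Farsa, Rars and Sars2, none of which passed. Farsa, the catalytic subunit of the cytosolic phenylalanyl enzyme, had 49.9, 85.7 and 123 CPM in controls and 54.7, 137 and 290 CPM in Ehmt2Mat. Of the Ehmt2Mat embryos 6 lay above every control, and the lowest lay among the lowest controls (log2 fold change 0.74, SE 0.25, adjusted p = 0.0599). Its partner subunit Farsb had a log2 fold change of 0.32 (SE 0.24, adjusted p = 0.467).

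Rars had 221, 373 and 407 CPM in controls and 307, 477 and 783 CPM in Ehmt2Mat. Here 9 of 10 Ehmt2Mat embryos exceeded every control, and the remaining one, Ehmt2Mat 8, lay below the control median. The log2 fold change was 0.49 (SE 0.17, adjusted p = 0.0626), smaller than that of Kars, and the highest embryo, Ehmt2Mat 9 at 783 CPM, stood apart from the next at 529 CPM. Sars2 had 8.14, 14.5 and 27.0 CPM in controls and 12.3, 30.2 and 54.3 CPM in Ehmt2Mat. Of the Ehmt2Mat embryos 6 were above every control (log2 fold change 0.92, SE 0.32, adjusted p = 0.0686). Mrps12, 148 bases from the start of Sars2, had a log2 fold change of -0.18 (SE 0.24, adjusted p = 0.722).

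These 3 genes passed the threshold under other settings. DESeq2 called 4 members (Farsa, Kars, Rars and Sars2) where it called 13.4% of 15365 genes (7.00% higher). With at least 10 counts required in every embryo, edgeR called the same 4 members and 19.2% of 7154 genes (8.95% higher). Leaving out single embryos gave 1 or 2 called members.

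Of the members, 10 belong to the multi-synthetase complex. Kars was the 1 that passed, 10.0% against 9.35% of all genes, and 3 were higher and 1 lower at an unadjusted p of 0.05, against 23.3% of all genes. The median log2 fold change of the 10 was 0.03. The scaffolds moved in opposite directions without passing. Aimp1, the scaffold that also binds tRNA, had 89.4, 159 and 189 CPM in controls and 51.1, 112 and 157 CPM in Ehmt2Mat, where every embryo lay below the control median (log2 fold change -0.45, SE 0.20, adjusted p = 0.174). Aimp2, the core scaffold, had 124, 188 and 310 CPM in controls and 138, 223 and 369 CPM in Ehmt2Mat (log2 fold change 0.43, SE 0.19, adjusted p = 0.173). Aimp2 shares 487 exon bases (29.4%) with Eif2ak1 on the opposite strand, so that part of its count cannot be told apart from that gene. Eef1e1, the other scaffold, had a log2 fold change of -0.15 (SE 0.18).

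None of the remaining complex enzymes passed. Eprs, which joins the glutamyl and prolyl activities in 1 protein, had a log2 fold change of 0.12 (SE 0.18), Dars (aspartyl) -0.07 (SE 0.19) and Iars (isoleucyl) -0.06 (SE 0.18). Lars (leucyl), Mars (methionyl) and Qars (glutaminyl) had -0.28 (SE 0.23), 0.41 (SE 0.26) and -0.05 (SE 0.35). Qars was the most uneven of these, at 12.4 to 450 CPM among the controls, with Ehmt2Cntr 7 the highest, against 107 to 244 CPM in Ehmt2Mat.

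Among the cytosolic enzymes outside the complex, Tars (threonyl) had 59.5, 88.1 and 140 CPM in controls and 53.0, 129 and 226 CPM in Ehmt2Mat (log2 fold change 0.47, SE 0.24, adjusted p = 0.236). All 10 Ehmt2Mat embryos lay above the control median for Yars (tyrosyl) and Nars, with log2 fold changes of 0.32 (SE 0.20) and 0.27 (SE 0.17) and adjusted p-values of 0.359 and 0.379. Without Ehmt2Cntr 7, the highest control for Yars and Mars, the log2 fold change of Yars was 0.52 (adjusted p = 0.0511) and that of Mars 0.65 (adjusted p = 0.0895). That embryo was singled out after the values were seen, and each value is the largest of 19 fits with 1 embryo left out. Over these fits Yars had 0.26 to 0.52 (adjusted p from 0.0511 to 0.497) and Mars 0.31 to 0.65 (adjusted p from 0.0895 to 0.521). Neither gene was called in any of them. Mars, of the complex, also had all 10 above the control median. The tightest estimates were those of Rars, Nars and Hars (histidyl), the last with a log2 fold change of 0.16 (SE 0.17).

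The other cytosolic enzymes varied about 0. Cars (cysteinyl) had 0.22 (SE 0.30), Gars (glycyl) 0.20 (SE 0.22) and Wars (tryptophanyl) -0.01 (SE 0.29). Aars (alanyl), Sars (seryl) and Vars (valyl) had -0.12 (SE 0.20), -0.30 (SE 0.30) and -0.82 (SE 0.51). Vars was the most uneven, at 1.78 to 122 CPM among the controls against 9.45 to 69.7 CPM in Ehmt2Mat. The 3 genes in which the element TGATGNAA was found among the 13 cytosolic promoters searched, Aars, Gars and Tars, had log2 fold changes of -0.12, 0.20 and 0.47, none of which passed.

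**Figure D3:**
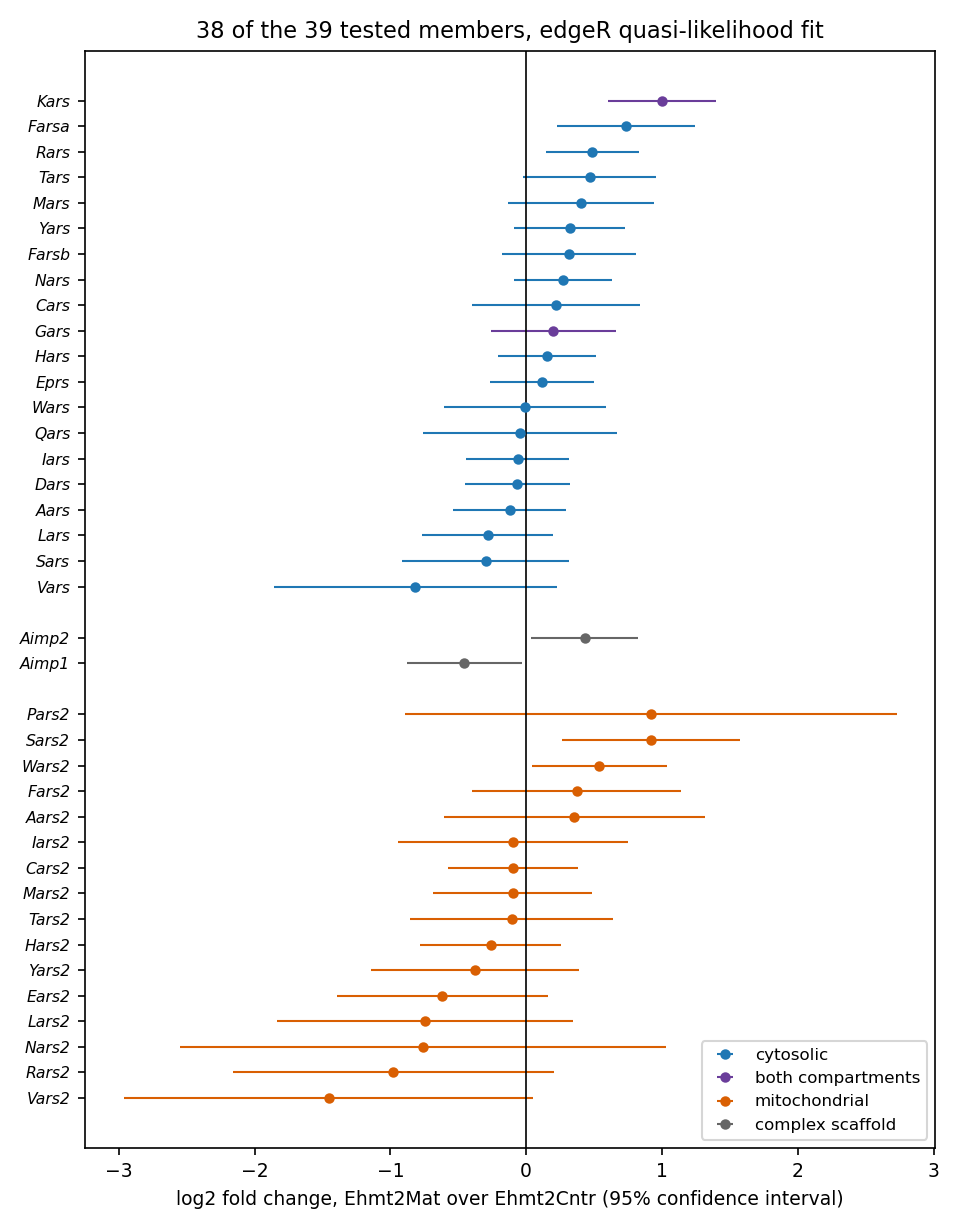
Log2 fold change (Ehmt2Mat over Ehmt2Cntr) of 38 of the 39 tested members with 95% confidence intervals from edgeR, ordered within cytosolic, scaffold and mitochondrial genes. Kars at 1.00 lies highest among cytosolic enzymes, and the mitochondrial intervals are wider, with a median width of 1.54 against 0.94.

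Of 17 mitochondrial enzymes 0 passed the test with edgeR, where 9.35% of all genes did. At an unadjusted p under 0.05, 2 were higher (Sars2 and Wars2) and 0 lower, against 10.9% and 12.3% of all genes. DESeq2 called Sars2. Wars2, the mitochondrial tryptophanyl enzyme, had 46.9, 85.6 and 110 CPM in controls and 45.7, 115 and 251 CPM in Ehmt2Mat, with 6 Ehmt2Mat embryos above every control (log2 fold change 0.54, SE 0.24, adjusted p = 0.173). Pars2 (prolyl) had a log2 fold change of 0.92 (SE 0.88) from few counts, being at 0 in 2 controls and 1 Ehmt2Mat embryo. Fars2 (phenylalanyl) and Aars2 (alanyl) had 0.37 (SE 0.37) and 0.35 (SE 0.47).

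The most negative estimates came from mitochondrial enzymes of low level. Vars2 had 0.947, 5.51 and 17.3 CPM in controls and 0.082, 2.45 and 8.86 CPM in Ehmt2Mat, where 9 of 10 embryos lay below the control median. The log2 fold change was -1.46 (SE 0.73, adjusted p = 0.233), with an interval of 0.13- to 1.04-fold. Rars2 (arginyl) had 5.65, 16.9 and 52.0 CPM in controls and 0, 9.19 and 21.9 CPM in Ehmt2Mat (log2 fold change -0.98, SE 0.57, adjusted p = 0.320). These 2 genes overlapped between groups over most of their range.

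Lars2 (leucyl) and Nars2 (asparaginyl) had log2 fold changes of -0.74 (SE 0.53) and -0.76 (SE 0.87). Those of Ears2 (glutamyl) and Yars2 (tyrosyl) were -0.62 (SE 0.38) and -0.38 (SE 0.37). Hars2 (histidyl) had -0.26 (SE 0.25), and Cars2, Iars2, Mars2 (methionyl) and Tars2 (threonyl) lay between -0.11 and -0.10. For 5 of the 17 mitochondrial enzymes the 95% interval lay within a 2-fold difference in either direction, against 17 of 20 cytosolic enzymes, so for most mitochondrial enzymes a 2-fold difference was within the error.

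By compartment, 12 cytosolic enzymes had a positive and 8 a negative log2 fold change (median 0.18), and 5 mitochondrial enzymes had a positive and 12 a negative one (median -0.11). The median over all tested genes was -0.04. The mitochondrial direction rested on genes that share exon bases with another gene, where unstranded reads cannot be told apart. The 7 mitochondrial enzymes with such bases, among them Cars2, Ears2, Hars2, Iars2, Nars2 and Vars2, were all negative. The 10 without were 5 positive and 5 negative, with a median of 0.13. Among the cytosolic enzymes the median was 0.12 over the 15 without shared bases and 0.32 over the 5 with them.

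Cytosolic and mitochondrial enzymes for the same amino acid could be set side by side in 17 pairs, with Eprs standing for glutamate and for proline and Farsa for phenylalanine. The cytosolic log2 fold change was the larger in 13 pairs and the mitochondrial in 4 (Aars2, Pars2, Sars2 and Wars2), with a median difference of 0.45. The signs were opposite in 11 pairs. Arginine was the widest pair in this direction, with 0.49 for Rars and -0.98 for Rars2, a difference of 1.47. Serine was the widest in the other, with -0.30 for Sars and 0.92 for Sars2. Pairs come from the same embryos and are given as a description.

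**Figure D4:**
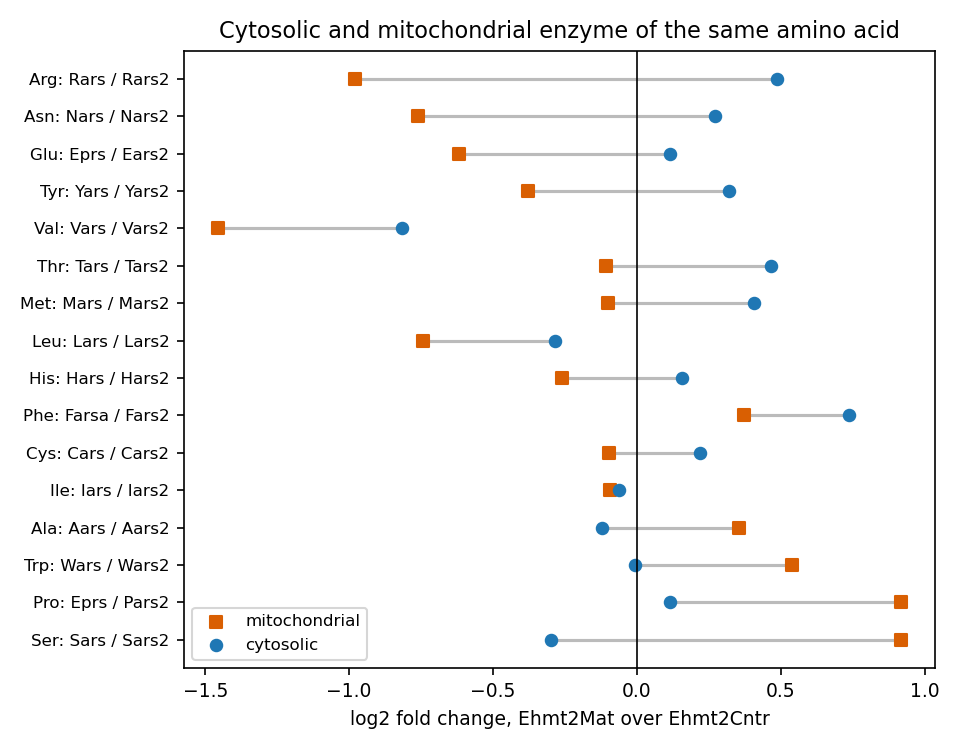
Log2 fold change (Ehmt2Mat over Ehmt2Cntr) of the cytosolic (circles) and mitochondrial (squares) enzyme of 16 of the 17 amino acid pairs, ordered by their difference. The cytosolic value lies to the right in 12 of the pairs drawn, and alanine, tryptophan, proline and serine are the 4 exceptions.

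Summed per embryo, the cytosolic enzymes had 2094, 2858 and 4258 CPM in controls and 2877, 3521 and 4584 CPM in Ehmt2Mat. The mitochondrial enzymes had 384, 512 and 652 CPM in controls and 377, 507 and 579 CPM in Ehmt2Mat. The cytosolic sum was therefore shifted upwards in Ehmt2Mat with broad overlap, and the mitochondrial sum was not. The lower rRNA-like genes and the other marker differences given above move with the same groups, and their part in the sums was not tested. The highest control in both sums was Ehmt2Cntr 7.

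The ratio of the cytosolic to the mitochondrial sum had 4.52, 5.81 and 7.00 in controls and 6.31, 7.16 and 8.67 in Ehmt2Mat. Without Kars it had 3.93, 5.13 and 6.02 in controls and 5.35, 5.85 and 7.03 in Ehmt2Mat, so the groups then overlapped more. Kars made up 7.83, 11.6 and 15.7% of the cytosolic sum in controls and 13.3, 17.2 and 25.6% in Ehmt2Mat. The highest control in the ratio and in this share was Ehmt2Cntr 10. Kars was the highest member by CPM in 8 of 10 Ehmt2Mat embryos, and Rars in the other 2. In controls Kars led in 4 embryos, Rars in 4 and Qars in 1. More genes were detected in Ehmt2Mat than in most controls, and the part of this in the sums was not tested.

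**Figure D5:**
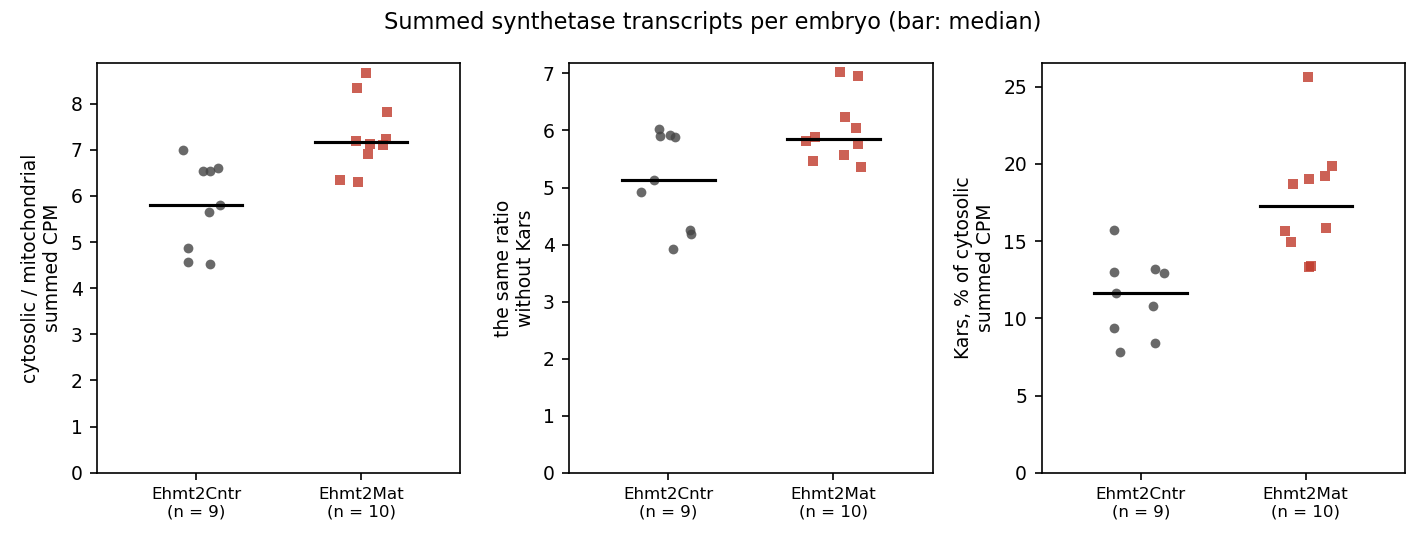
Ratio of summed cytosolic to summed mitochondrial synthetase CPM, the same ratio without Kars, and Kars as a percent of the cytosolic sum, per embryo with a bar at the median (9 Ehmt2Cntr, 10 Ehmt2Mat). Medians are 5.81 and 7.16, 5.13 and 5.85, and 11.6% and 17.2%.

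For 11 members another tested gene on the opposite strand starts within 1000 bases, with Hars and Hars2 each the neighbour of the other. Genes on the same strand were not searched. Of these 11 neighbours 1 passed, where 9.35% of all genes did. It was Ubfd1 next to Ears2, with a log2 fold change of -0.67 (SE 0.18, adjusted p = 0.0204). Ears2 itself had -0.62 (SE 0.38, adjusted p = 0.347), and the genes share 89 exon bases. Yars and S100pbp, 33 bases apart, had 0.32 (SE 0.20) and -0.25 (SE 0.27). Rars2 and Orc3, a replication origin protein gene 13 bases away, had -0.98 (SE 0.57) and -0.50 (SE 0.33).

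Genes that act beside the synthetases were listed to show what surrounded them. Of 21 tested genes of the Atf4 and amino acid response, 1 was higher and 1 lower by edgeR, where 4.37% and 4.98% of all genes were. Their median log2 fold change was 0.35. Of these 21, 6 were under an unadjusted p of 0.05, against 23.3% of all genes. DESeq2 called 3 of them, Ppp1r15a, Eif4ebp1 and Psph, against 13.4% of all genes. Psph was lower, at -0.73 (SE 0.26, adjusted p = 0.0446 by DESeq2). Ppp1r15a, a phosphatase subunit acting on eIF2α, rose by 1.82 (SE 0.40, adjusted p = 0.00544), and Eif4ebp1, an inhibitor of cap-dependent initiation, fell by 1.08 (SE 0.29, adjusted p = 0.0216). Atf4 itself had 0.46 (SE 0.18, adjusted p = 0.117), and Asns, asparagine synthetase, had 0.63 (SE 0.66). Of 13 tested amino acid transporter genes 0 passed with edgeR and 0 were under an unadjusted p of 0.05, and DESeq2 called 0 of these 13. Outside them DESeq2 called Slc7a1, a cationic amino acid transporter gene at 0 in every control and at most 7.60 CPM in Ehmt2Mat.

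Among 14 cytosolic elongation and termination genes 2 were higher and 0 lower by edgeR, where 4.37% and 4.98% of all genes were. Eef2, the translocase, was higher by 1.10 (SE 0.25, adjusted p = 0.00668) and Eef1d, a subunit of the exchange factor, by 0.92 (SE 0.22, adjusted p = 0.0109) on the log2 scale. The median of these 14 was 0.00, 3 were under an unadjusted p of 0.05 and DESeq2 called 3. Besides Eef2 and Eef1d, DESeq2 called Hbs1l, which was lower, at -0.97 (SE 0.33, adjusted p = 0.0277). Among genes whose symbols start with Eif and a digit, 53 were tested. Of these, 6 were higher and 3 lower (median 0.13), where 4.37% and 4.98% of all genes were. The symbols cover initiation factors but also regulators such as Eif2ak3 and Eif4ebp1, and Eif5a and Eif5a2, which are in the elongation list too. Eif4ebp1, counted above with the Atf4 genes, was 1 of the 3 lower. Of these 53, 17 were under an unadjusted p of 0.05 and DESeq2 called 10. By edgeR, Eif3c at 0.98 (SE 0.17, adjusted p = 0.000948) and Eif2b3 at 0.94 (SE 0.18, adjusted p = 0.00205) were among the higher and Eif3a at -0.65 (SE 0.17, adjusted p = 0.0193) among the lower. Prorsd1, which is related to proteins that remove mischarged alanine, was the 1 of 5 trans-editing and tRNA export genes that passed (1.34, SE 0.37, adjusted p = 0.0228). Over all tested genes 9.35% passed.

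On the mitochondrial side, 77 ribosomal protein genes were split into 6 higher and 5 lower (median 0.08), against the same 4.37% and 4.98% of all genes. Of these 77, 26 were under an unadjusted p of 0.05 and DESeq2 called 17. Examples by edgeR were Mrpl12 at 0.89 (SE 0.19, adjusted p = 0.00473) and Mrpl21 at -2.05 (SE 0.21, adjusted p = 7.7e-06). Of 15 mitochondrial translation factor genes 0 passed with edgeR, 3 were under an unadjusted p of 0.05 and DESeq2 called 2, with a median of -0.33. The mitochondrial synthetases had a median of -0.11 and 0 of 17 called by edgeR, against 9.35% of all genes. With so few genes, and intervals of a median width of 1.54, this count does not set them apart from the ribosomal proteins.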

How the data were processed

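The authors deposited raw counts per gene for each embryo, not normalised. Per the file headers they were made with featureCounts 1.5.0 on exons of Ensembl release 82 (GRCm38), requiring 10 overlapping bases, counting a read for each gene it touched, keeping multi-mapping reads and ignoring strand. The aligner is not given there, and the methods of the study name TopHat2 for genes. The cDNA amplification is biased to the 3′ end, and reads were single-end of 50 bases.

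From these counts, edgeR 4.0.16 in R 4.3.3 (filterByExpr, TMM, quasi-likelihood test, Benjamini-Hochberg over all genes tested, threshold 0.05) compared Ehmt2Mat with Ehmt2Cntr embryos without covariates. Zygotic genotypes were compared in separate fits. A count of 3 was worth between 0.091 and 0.363 CPM, depending on the embryo. Compartments and complex membership were assigned by hand from general knowledge. Members and lists were chosen with earlier results of these data known, and Farsa, Rars and Sars2 were described in full after their values were seen. From each other list up to 3 called genes per direction, by smallest adjusted p, could be named, and others were named after their values were seen. Promoters came from RefSeq (GRCm38.p6). The fitting was tested on simulated data. Alternatives were RLE and upper-quartile normalisation, DESeq2 1.42.0, other filters, a log2 fold change of at least 1, the embryo number as a block, and each embryo left out. Embryo numbers did not pair the samples. The values of 1 member and 1 promoter sequence are not reported here.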

Additional observations from a re-analysis of the deposited data

Results flagged for a closer look

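Of 78 sets of embryos (39 tested members in 2 groups), 10 held an embryo that stood apart from the rest of its group. It was the highest of its group in each of them. The rule would flag about 1 in 20 sets of independent, normally distributed values. CPM need not be so distributed and the sets share embryos, so no excess can be read from these 10 sets. Ehmt2Cntr 7 was the embryo in 5 of them, the highest control for Lars2 (17.7 CPM, next 9.26), Mars (177 CPM, next 98.1), Qars (450 CPM, next 213), Rars2 (52.0 CPM, next 26.9) and Yars (353 CPM, next 225). It was also the highest control in 16 of 39 tested members. Ehmt2Mat 9 stood apart for Aars (314 CPM, next 202) and Rars (783 CPM, next 529). The others were Ehmt2Cntr 1 for Aimp2 (310 CPM, next 204), Ehmt2Mat 7 for Lars2 (11.9 CPM, next 5.83) and Ehmt2Mat 6 for Vars2 (8.86 CPM, next 4.44). With Ehmt2Cntr 7 and 10 both left out, an alternative chosen after seeing the data, 1 member was called (Kars), and the medians were 0.26 for cytosolic and -0.15 for mitochondrial enzymes.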

How the results depend on the processing

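Kars passed under every alternative run on the comparison of Ehmt2Mat with Ehmt2Cntr. The count of called members was 4 with DESeq2 and 4 with the filter of 10 counts per embryo, and 1 to 2 with single embryos left out. The second member was Sars2 without Ehmt2Cntr 9 or Ehmt2Mat 2, Farsa without Ehmt2Mat 6 or 9, and Rars without Ehmt2Mat 8 or 10. Over all genes the count was 2054 with DESeq2, 699 with the replicate block, 667 when a log2 fold change of 1 or more in size was also required, and 884 to 1262 with single embryos left out. The median of all genes was -0.04 over the 11754 genes of the main fit. Over the 21185 genes with any count it was 0.14 with DESeq2 and 0.13 with edgeR without a filter. The embryo numbers did not pair the samples (mean correlation of same-numbered embryos 0.01, from -0.16 to 0.09, and 0 of 9 embryos closest to their own number), and with them as a block Kars was still the 1 called member. The cytosolic median was 0.09 to 0.29 and the mitochondrial -0.27 to -0.09 with single embryos left out, and the mitochondrial median turned to 0.13 when members sharing exon bases were dropped, a choice made after seeing the data. In each control the median level of the cytosolic enzymes was divided by that of the mitochondrial ones, and the mean of this ratio over controls was 5.23 per kb and 6.45 in CPM.

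Signs turned only for members close to 0. Wars had 0.00405 (RLE), 0.0342 (upper quartile), 0.00381 (DESeq2), 0.00384 (block), 0.0332 (no filter), 0.00103 (10 counts) and 0.149 (Ehmt2Cntr 7 and 10 left out). Qars had 0.19 with the block, and without Ehmt2Cntr 7 and 10 Qars had 0.26 and Iars2 0.0302. With single embryos left out the ranges were -0.0928 to 0.207 (Wars), -0.202 to 0.264 (Qars), -0.126 to 0.0449 (Dars), -0.132 to 0.0114 (Iars), -0.253 to 0.0740 (Iars2), -0.224 to 0.0476 (Mars2) and -0.285 to 0.0523 (Tars2). The cause was not tested. Of the 17 mitochondrial enzymes 3 were at 0 in at least 1 embryo, as was Tarsl2.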
